A study of Papilio xuthus with 10 samples.

Results

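In the swallowtail butterfly *Papilio xuthus*, 88 of the 15123 genes measured stood out in the fourth-instar larva (L4) against the instars on either side of it. They were chosen from the deposited values alone. A gene was taken when its level in L4 was an RPKM of 10 or more (RPKM, reads scaled to the length of the gene and the total of the library), and when RPKM + 1 in L4 was at least 4 times that in the third instar (L3) and at least 4 times that in the fifth (L5). The remaining 7 libraries played no part in the choice. The complete series covers development in 10 groups of 1 whole-body library each: egg, larvae of instars 1 to 5 (L1 to L5), pupae of the female (FP) and of the male (MP), and adults of the female (FA) and of the male (MA). The labels give no treatment, strain, allele or age for any group, and no sex for the egg or larval libraries. Per the methods of the study, eggs, L1 and L2 were pools of animals, whereas L3, L4, L5, the pupae and the adults were single individuals. The L4 library is therefore 1 caterpillar, and setting one stage against another sets 2 libraries side by side. There is no replicate check, and no test was made.

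A caterpillar grows through a fixed series of instars that are separated by moults. At each moult a pulse of the steroid hormone ecdysone makes the epidermis detach from the old cuticle and lay down a new one, while juvenile hormone keeps the animal larval. Many insect genes of cuticle formation, hormone response and tissue remodelling are switched on for short windows around a moult and again at pupation. The label of a library gives the instar and not the time since the last moult.

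The table names genes by identifier only. RefSeq lists 13139 genes for its assembly Pxut_1.1, and 0 of the identifiers matched one of them, so that no gene name, function, position or sequence can be given here, and at most 2 identifiers are printed for a direction of a comparison. Markers of tissues could not be checked for the same reason. Whole reads and library totals could be read back from the values. Totals lay between 23378656 reads in L5 and 35161755 in MP, with 29409552 in L4 and 28197950 in L3. Reads summed over genes exceeded the total in L2 to L5, at 124% in L4, 136% in L3 and 142% in L5, and lay between 76.5% and 98.6% in the other 6 libraries. The part of this in differences between larvae and other stages was not tested. Each of the 88 genes had at least 117 reads in L4.

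The values that chose the genes are given as a description. The 88 genes are 0.582% of the table. On the L3 side alone 366 genes passed (2.42%), and on the L5 side alone 143 (0.946%), so that the comparison with L5 was the narrower gate. The fold of RPKM + 1 in L4 over the higher of L3 and L5 had a median of 5.75 and ran from 4.02 to 84.3. It was under 5 in 32 genes, 8 or more in 27 and 16 or more in 17. Between the 2 flanking instars, 60 genes were higher in L5 and 28 in L3. The gene nearest the threshold inside was RR46_01346, at a fold of 4.02, and the nearest outside was RR46_04663, at 3.98. In 12 of the 88 genes the exact 95% interval of the ratio of reads, which covers counting error only, reached below 4 for L3 or L5. That ratio leaves out the added 1 and so lies above the fold of the rule, most of all in low genes. The 12 is thus not a count on the measure of the rule.

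**Figure D1:**
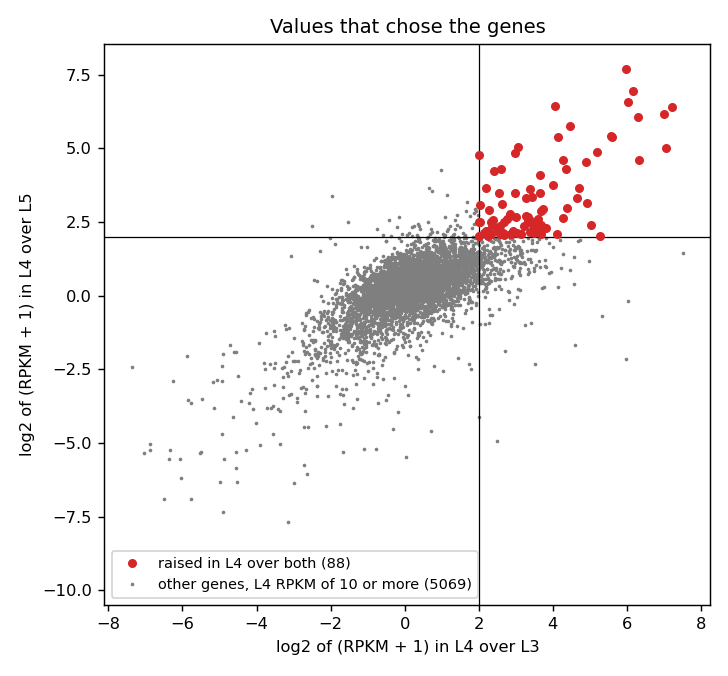
Each point is a gene with an L4 RPKM of 10 or more. The x axis is the log2 of RPKM + 1 in L4 over L3 and the y axis the same in L4 over L5. Lines mark a 4-fold difference, and the 88 genes raised over both lie in the upper right corner by construction, among 5069 other genes.

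The largest folds belonged to a pair of genes with consecutive identifiers. RR46_14636 had an RPKM of 0.482 in the egg, 0.571 in L1, 0.550 in L2, 5.48 in L3, 974 in L4, 10.6 in L5, 406 in FP, 324 in MP, 146 in FA and 17.4 in MA. It was nearly silent before L3, highest in L4, low again in L5 and high in the pupae. In reads, L4 was 178-fold over L3 (exact 95% interval 153 to 208) and 92.1-fold over L5 (81.6 to 104). RR46_14637 followed the same course, with 1183 in L4 against 8.20 in L3 and 15.3 in L5, and 581 in FP and 701 in MP.

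The most abundant of the 88 genes in L4 was RR46_05792, of 507 bp recovered coding length. Its RPKM was 897 in the egg, 1154 in L1, 657 in L2, 594 in L3, 3836 in L4, 675 in L5, 2331 in FP, 2459 in MP, 1228 in FA and 459 in MA. This gene was high throughout, with its lowest value in MA. RR46_12186, the next in L4, was higher in each stage up to L4 and low in L5, at 2.03 in the egg, 3.77 in L1, 21.9 in L2, 418 in L3, 3503 in L4 and 105 in L5. These 2 genes ranked 58 and 63 among all 15123 genes in L4.

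Across the 10 libraries, the 88 genes were not confined to L4. Their median RPKM was 8.65 in the egg, 9.72 in L1, 4.27 in L2, 3.23 in L3, 42.0 in L4 and 4.19 in L5. It was 13.3 in FP, 14.2 in MP, 23.0 in FA and 16.9 in MA. L3 and L5 were low by the rule. Among the 7 libraries it left free, L2 was lowest and FA highest in the deposited values. L2 is also the library whose reads at genes most exceeded its total, at 154%. At the same upper quartile the egg was lowest, at 6.21 beside 6.73 in L2, and FA highest, at 15.9. At the same sum L2 was lowest, at 2.37, and the median in FA, 36.8, was above that in L4, 32.9. Over the other 5069 genes at an L4 RPKM of 10 or more, medians were flatter, between 18.7 in L2 and 36.2 in FA. The summed RPKM of the 88 genes came to 1.36% of all RPKM in L4, 0.117% in L3 and 0.106% in L5. It was 1.19% in FP, 0.961% in MP, 1.21% in FA and 0.654% in MA, against 0.140% in L2. A few genes set these sums. The 3 most abundant of the 88 gave 41.6% of their sum in L4 and 67.9% in L2.

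**Figure D2:**
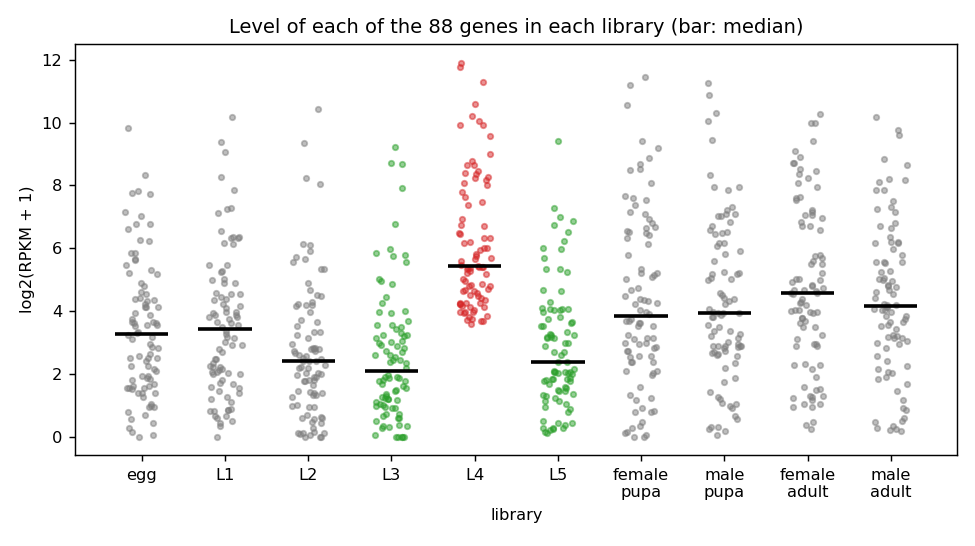
Each point is 1 of the 88 genes, on the y axis as log2(RPKM + 1), in each library on the x axis, and bars are medians. L4 is in red and L3 and L5, which the rule holds low, are in green; in the deposited values the medians in pupae and adults, from 13.3 to 23.0 RPKM, lie between those of L3 and L5 and that of L4.

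L4 was the highest of the 10 libraries in 47 of the 88 genes (53.4%), against 10.1% of the other 5069 genes at that L4 level. The other 41 genes had their highest value in a library outside the rule, 11 in MA, 10 in FA, 8 in FP, 6 in MP, 3 in L1, 2 in the egg and 1 in L2. L4 was at least 4-fold over L2 in 64 of the 88 genes (16.8% of all 5157 genes with an L4 RPKM of 10 or more), over the egg in 53 (8.2%) and over L1 in 48 (6.67%). It was so over FP in 40 (13.4%), over MP in 40 (12.6%), over FA in 26 (14.5%) and over MA in 38 (11.1%). A gene was counted as present in a stage when RPKM + 1 there was above 0.25 times its L4 value, taking the higher library where a stage had 2. By this measure 66 of the 88 genes (75%) were present in adults, beside 91.7% of the 5157 genes. In pupae 54 (61.4%) were present, beside 88.9%, in the egg or L1 43 (48.9%), beside 94.3%, and in L2 24 (27.3%), beside 83.2%. L4 both chose the genes and enters these counts, so that nothing is read from the gap to the 5157 genes. The share present in pupae and adults depended on the scaling between libraries. It was 41 and 53 of 87 genes when columns were brought to the same upper quartile, and 85 and 96 of 111 when brought to the same sum.

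The genes fell into patterns by the stages in which they were present by this measure, with L3 and L5 left out. It is relative to L4, so that a gene not counted in a stage can still be expressed there. The commonest were pupae and adults together (17 genes), all stages (14), the egg or L1 with pupae and adults (14), adults alone (10) and no other stage (9). Of the 24 genes present in L2, 14 were the genes of all stages, and 1 was present in L2 and nowhere else.

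**Figure D3:**
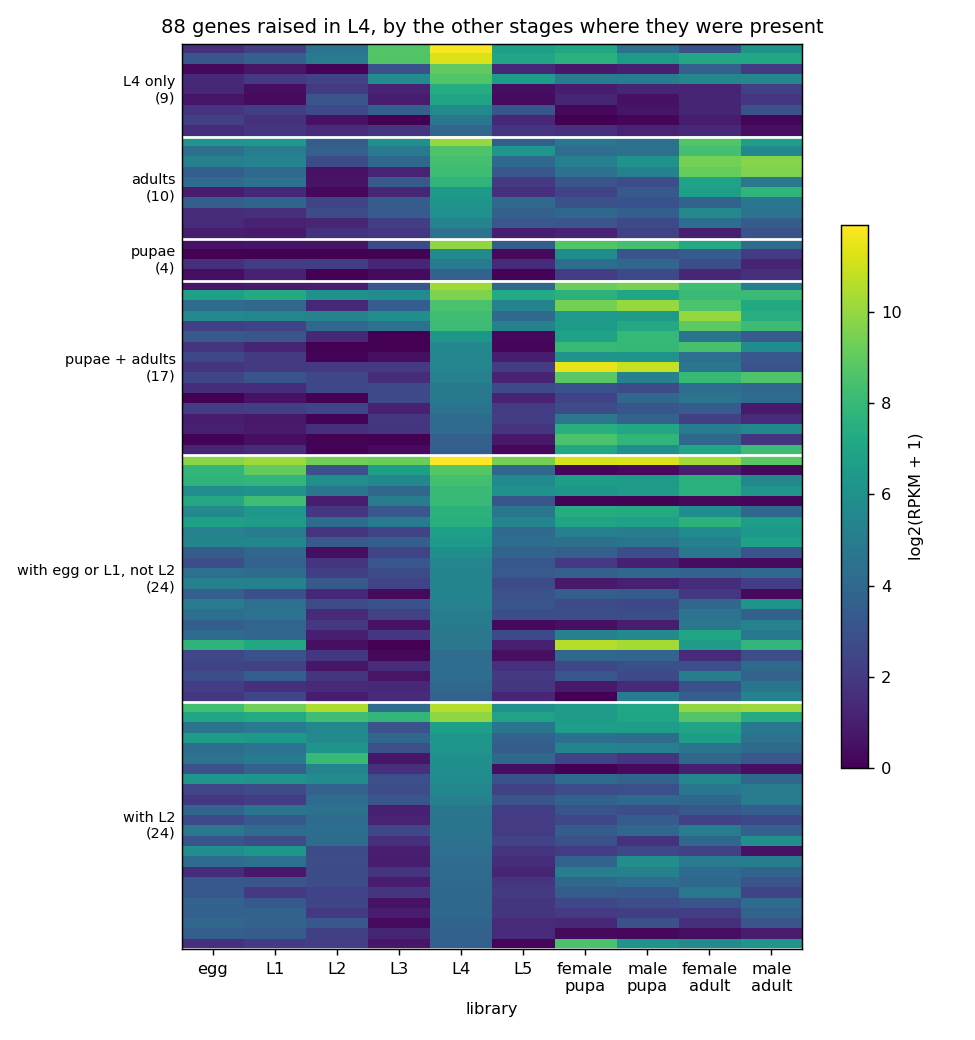
Rows are the 88 genes, grouped by the other stages in which RPKM + 1 was above 0.25 times its L4 value, with the number of genes in brackets, and columns are the 10 libraries. Colour is log2(RPKM + 1), and a bright L4 column between darker L3 and L5 columns is fixed by the rule. The 17 genes of the pupae + adults class were present in both of these and not in the egg, L1 or L2. Genes in the classes with the egg, L1 or L2 can be present in pupae and adults as well.

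In 9 of the 5157 genes (0.175%) L4 was at least 4-fold over each of the other 9 libraries, and all 9 are among the 88 because that condition includes the rule. Their L4 RPKM ran from 14.2 to 3503. The 2 highest were RR46_12186, given above for the egg and larvae, and RR46_12185. After L5, RR46_12186 had 135 in FP, 21.6 in MP, 6.64 in FA and 70.4 in MA. RR46_12185 had 7.98 in the egg, 11.4 in L1, 28.6 in L2, 408 in L3, 2488 in L4, 126 in L5, 191 in FP, 88.5 in MP, 140 in FA and 141 in MA. Both were higher in each instar than in the one before, up to L4. By contrast RR46_00079 and RR46_00080, singled out after their values were seen, showed no such order. RR46_00079 was at 164 in L4 and at most 3.73, in MA, elsewhere. RR46_00080 was at 121 in L4 and at most 7.83, in L2, elsewhere.

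Of the 10 genes shared with adults alone, RR46_07443 had the highest L4 value. It was at 74.9 in the egg, 79.8 in L1, 10.6 in L2, 62.4 in L3, 1067 in L4, 11.2 in L5, 24.7 in FP, 20.1 in MP, 415 in FA and 104 in MA. RR46_02509 was at 399 in L4, 326 in FA and 46.6 in MA, and at most 74.6, in L5, elsewhere. In both genes FA was above MA and both pupae were low.

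Genes shared with the pupae included some in which L4 was a minor peak. Of the 4 genes present in pupae alone, RR46_14636 is given above, and RR46_10474 had 1 read in the egg, 0 in L1, 0 in L2, 1 in L3 and 4 in L5. Its RPKM was 49.4 in L4, 54.2 in FP, 7.85 in MP, 10.1 in FA and 3.14 in MA. The L4 value is 1142 reads and carries a 95% interval of 46.6 to 52.4 from counting. The gene thus had more than 4 reads in 1 larval library out of 5. Among the 17 genes of pupae and adults, RR46_06806 stayed between 2.55 and 3.15 in the egg, L1, L2, L3 and L5. It reached 41.5 in L4, 2806 in FP and 1889 in MP, and was at 24.5 in FA and 7.30 in MA. RR46_10469 had 0 reads in L3, 10 in L5 and 200 in L4. Its RPKM was 11.7 in L4, 369 in FP, 230 in MP, 14.7 in FA and 2.60 in MA. In these 2 genes the pupal level exceeded the L4 level many times over.

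The 4 genes shared with the egg or L1 alone were low relative to L4 in L2 by this pattern, and in L3 and L5 by the rule. Not all of them had L3 and L5 below the egg. RR46_12070 was at 142 in the egg, 308 in L1, 0.905 in L2, 31.6 in L3, 255 in L4 and 8.04 in L5, and at or below 0.185 in the pupae and adults. RR46_01346 was at 226 in the egg, 531 in L1, 6.70 in L2, 109 in L3, 440 in L4 and 15.3 in L5, and at or below 0.932 afterwards. Both were high in the egg, L1 and L4 and low in L2 and L5, and were close to off from the pupa on. Over the table, only 1 of 15123 genes differed 4-fold between L1 and egg. The high L1 values are therefore not read as a larval course apart from the egg. The one gene shared with L2 alone, RR46_09623, was high in L2 and L4 instead. It was at 6.63 in the egg, 11.7 in L1, 39.7 in L2, 2.19 in L3, 55.2 in L4 and 0.340 in L5, and at or below 1.05 in pupae and adults. RR46_10348 was the only one of the 88 genes that was higher in L2 than in L4, at 263 in L2 and 62.7 in L4, with 6 reads (0.651 RPKM) in L3.

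Contrasts among the 7 libraries outside the rule use no value that chose the genes. The 88 genes nevertheless had lower medians than the other genes in these libraries, as given above. The contrasts were counted at a 4-fold difference of RPKM + 1 and set beside all 15123 genes and beside the 5157 genes at an L4 RPKM of 10 or more. Between L1 and egg 0 of the 88 genes differed, and of all 15123 genes 0 (0.0%) were higher and 1 (0.00661%) was lower in L1. In L2 against L1, 4 of the 88 genes (4.55%) were higher and 17 (19.3%) lower, beside 2.18% and 14.1% of all genes and 3.28% and 14.8% of the genes at that L4 level. The counts moved with the scaling, for the 88 genes and for the table. At the same upper quartile 11 (12.5%) were higher in L2 and 12 (13.6%) lower, beside 5.77% and 7.81% of all genes. With sums made equal, 2 (2.27%) were higher in L2 and 35 (39.8%) lower, beside 0.78% and 28.2%. RR46_12070 and RR46_02915 were lowest in L2 relative to L1. RR46_02915 had 0.393 RPKM in L2 against 138 in L1, or 350-fold lower (exact 95% interval 161 to 956).

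The adults differed from the pupae in more of these genes than in the table as a whole. In females, 16 of the 88 genes (18.2%) were higher in the adult and 10 (11.4%) lower, beside 6.17% and 5.31% of all genes and 5.14% and 6.85% of the genes at that L4 level. In males, 14 (15.9%) were higher and 15 (17.0%) lower, beside 8.91% and 4.87% of all genes and 8.05% and 7.27% at that L4 level. These counts stayed within 1.5 times under both other scalings. RR46_08936 was at 545 in FA against 21.0 in FP, or 25.9-fold higher (22.0 to 30.6), and at 780 in MA against 36.9 in MP. RR46_12333 was at 104 in FA against 4.24 in FP, and at 230 in MA against 9.19 in MP. In the other direction RR46_06806, given above, was 114-fold lower in FA than in FP (108 to 121) and 259-fold lower in MA than in MP (231 to 290).

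Between the sexes the counts were small. In adults, 13 of the 88 genes (14.8%) were higher in FA and 2 (2.27%) in MA, beside 8.87% and 10.3% of all genes and 8.47% and 7.43% of those at that L4 level. The balance kept its side at the same upper quartile (7 and 4 genes, beside 5.83% and 12% of all genes) and at the same sum (21 and 1, beside 14.0% and 9.04%). RR46_14637 was at 301 in FA against 32.1 in MA, or 9.39-fold higher (8.76 to 10.1), and RR46_14636 was 8.40-fold higher (7.71 to 9.16). RR46_12186 was 10.6-fold lower in FA (8.41 to 13.6). RR46_03769 was at 14.4 in FA against 71.3 in MA. In pupae, 4 of them (4.55%) were higher in FP and 2 (2.27%) in MP, beside 0.456% and 4.03% of all genes. At that L4 level the shares were 0.485% and 0.291%, so that the male side of the complete table rested mostly on genes below it. RR46_10471 was at 464 in FP against 34.9 in MP, or 13.3-fold higher (12.4 to 14.2). RR46_03226 had 0 reads in FP and 1419 in MP, which makes it at least 438-fold lower in the female, with the limit set at 3 reads. It was detected in each of the other 9 libraries, at 12.9 in L4 and 11.4 in FA. These are single animals, so that sex and the individual cannot be told apart.

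**Figure D4:**
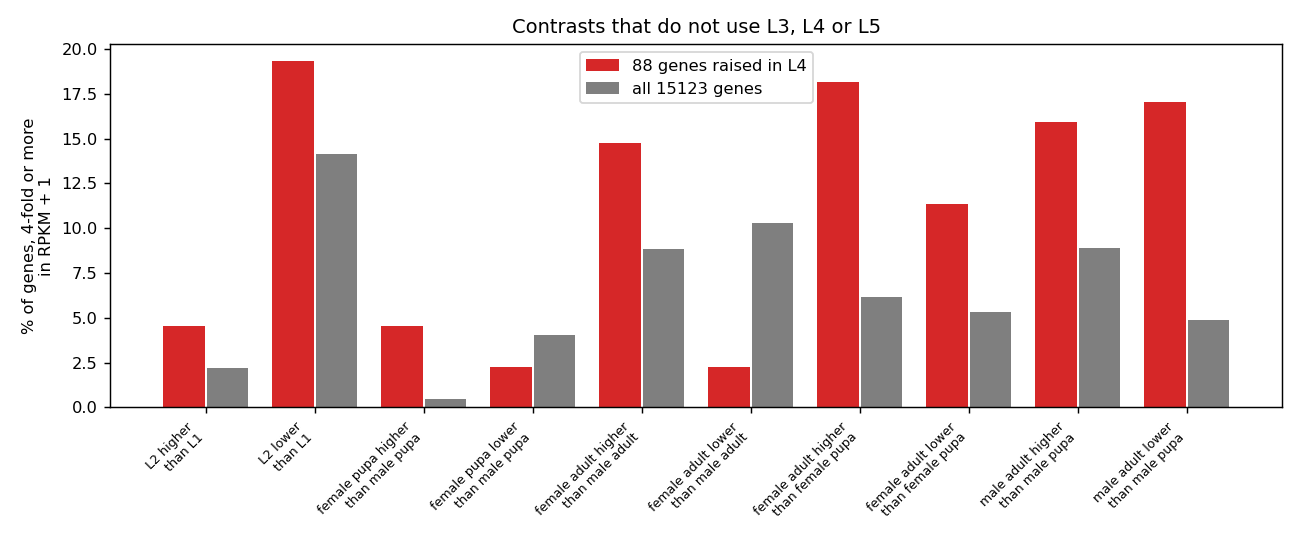
Bars give the percentage of genes that differed 4-fold or more in RPKM + 1 in each direction of 5 contrasts between libraries outside the rule, for the 88 genes (red) and all 15123 genes (grey). The red bars stand above the grey ones in both directions of adult against pupa and of L2 against L1. They do so too for female over male adults (14.8% against 8.87%) and female over male pupae (4.55% against 0.456%). The order is opposite for male over female adults (2.27% against 10.3%) and male over female pupae (2.27% against 4.03%). For male over female pupae it depends on the background. Over the 5157 genes at an L4 RPKM of 10 or more, not drawn, that share was 0.291%, below that of the 88 genes.

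Many of the genes were neighbours in number. Of the 174 identifiers 1 above or 1 below a raised gene, 26 (14.9%) were themselves among the 88, whereas the 88 genes make up 0.582% of the table. The 26 places came from 24 genes in 11 runs, 9 of 2 genes and 2 of 3. The sources used here do not say whether numbers follow the order of genes along a scaffold, and overlap between neighbouring gene models was not tested. None of the 162 pairs of near-identical copies in the table held one of the 88 genes (0 pairs). That check needs equal recovered lengths, and lengths differed within each run (249 and 741 bp in run 1). It could not have called a run, so that copying within runs was not tested. Other sets chosen in the same form also held neighbours, given here with the share of the table in each set. Genes lowered in L4 to 0.25 times both flanks or less had 19.9% (set, 1.53% of the table). Those raised in L2 over L1 and L3 had 8.16% (0.820%) and those lowered there 3.88% (1.03%). Those raised in L3 over L2 and L4 had 8.96% (0.443%) and those lowered there 6.74% (0.304%). The sets differ in size, so their neighbour shares are not ranked.

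Genes of a run often had their highest free library in the same stage. Of the 13 pairs of consecutive genes, 7 (53.8%) had the same pattern of stages, against 11.1% of all 3828 pairs among the 88 genes. That pattern is set relative to L4, which chose the genes, so nothing is read from it about the free libraries. By the free libraries only, the highest of the 7 fell in the same stage in 9 of 13 (69.2%), against 34.5% of all pairs. It was the same library in 5 of 13 (38.5%), against 17.1%. The runs named here were singled out after their values were seen. RR46_08936 and RR46_08937 (run 6) had their highest values in MA, at 780 and 864, then FA, at 545 and 685, with L4 at 299 and 328. RR46_07442 and RR46_07443 (run 4) had L4 at 220 and 1067, then FA at 114 and 415, and both had their lowest values in L2, at 0.521 and 10.6. In the run of 3 from RR46_14635 to RR46_14637 (run 10) the first gene parted from the other 2. RR46_14635 was at 514 in L4, 0.713 in FP and 0.972 in MP, where the other 2 lay between 324 and 701. In the run of 3 from RR46_14148 to RR46_14150 (run 9) all genes were present in pupae and adults relative to L4. L3 and L5, which the rule holds below L4, lay at or below 0.255. The highest free library differed, MP in the first gene, MA in the second and FA in the third.

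**Figure D5:**
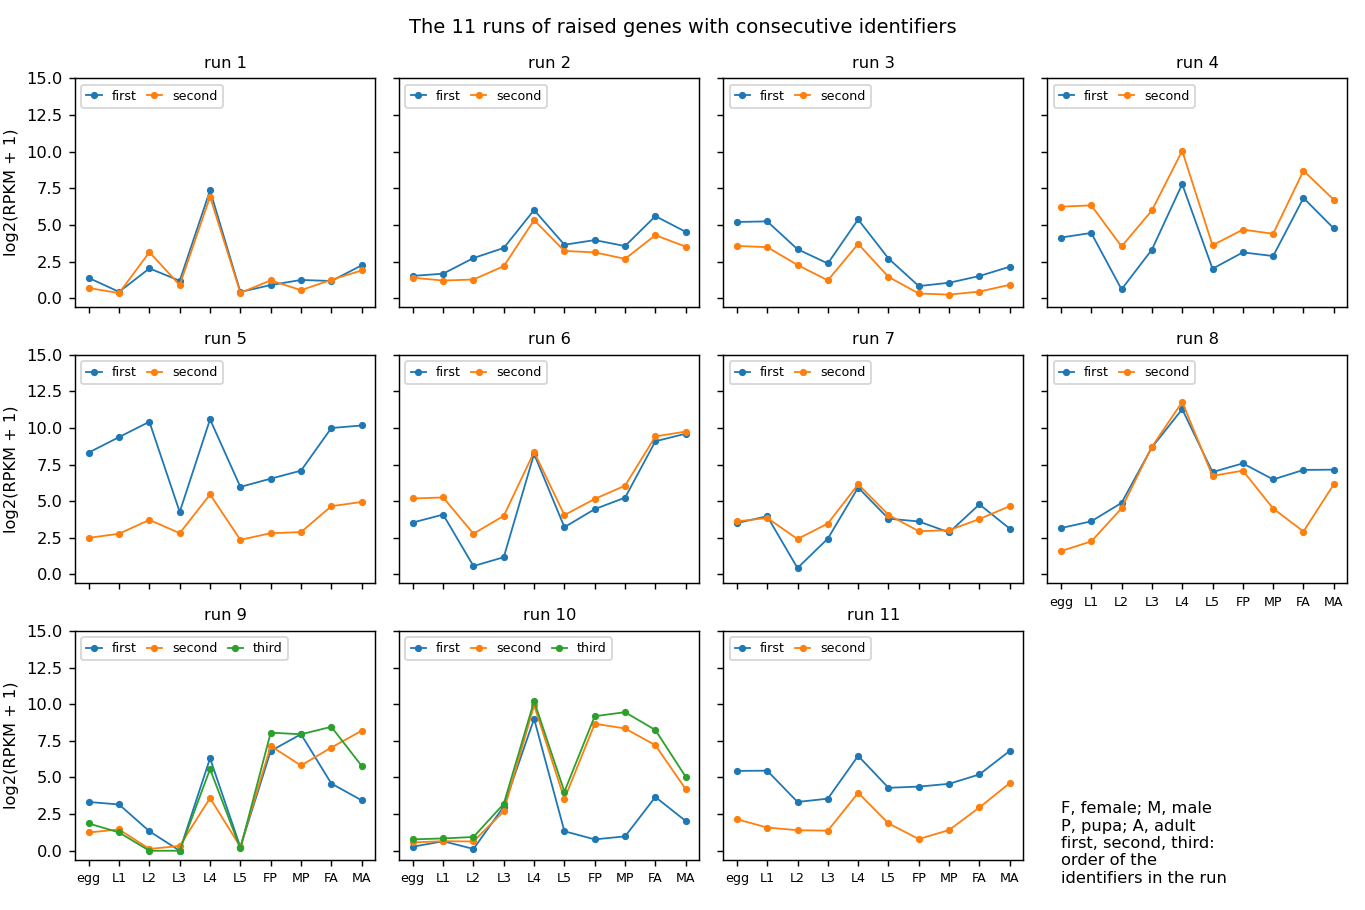
Each panel is a run of raised genes with consecutive identifiers, with the 10 libraries on the x axis and log2(RPKM + 1) on the y axis, 1 line per gene. The peak in L4 over L3 and L5 is fixed by the rule, whereas the free libraries are not. The lines there run side by side in run 4 and apart in the pupae of run 10. In run 1 they lie close together where both genes are low, at most 7.83 RPKM. The highest free library of run 1 was MA in the first gene and L2 in the second.

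Neighbours outside the 88 genes leaned the same way. Of the 147 genes next in number to a raised gene that were not raised themselves, 18 (12.2%) had RPKM + 1 in L4 at least 2-fold over both L3 and L5, against 4.92% of the 15035 genes outside the set. At an L4 RPKM of 10 or more the numbers were 13 of 62 (21.0%), against 477 of 5069 (9.41%). Most of the 147 genes did not reach 2-fold. Their median log2 fold over the higher of L3 and L5 was 0.102, against -0.0992 for all genes outside the set. The free libraries do not enter these values.

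The raised genes were shorter than other genes of that level. Their recovered coding length had a median of 722 bp and ran from 207 to 4776 bp, against a median of 1074 bp over the other 5069 genes. Recovered lengths are the smallest that the values allow. The same rule gave 124 genes (0.820%) for L2 over L1 and L3, and 67 (0.443%) for L3 over L2 and L4. The number for L4 lay between these here, but at the same sum it was above both, at 111 beside 65 for L2 and 59 for L3. Its mirror image, with L3 and L5 both at 10 or more and at least 4-fold over L4, gave 232 genes (1.53%), so that more genes dipped in this L4 library than peaked in it. This order of 232 over 88 held at the same upper quartile (273 over 87) and at the same sum (173 over 111).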

How the data were processed

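RNA of whole bodies was sequenced as poly-A selected, random-primed Illumina libraries, 1 library in each of 10 groups. The deposited table gives the authors' RPKM for 15123 genes. The submitters' processing notes name TopHat 1.0.12 and 1.4.1, whereas the genome build, the counter, its use of strand and its treatment of reads with several matches are not given in the sources used here. For every gene (100%), whole reads and the smallest coding length were recovered from the steps of the values, with lengths taken as multiples of 3 bp. The library totals read back from the values ran from 23378656 to 35161755 reads. Intervals are exact at 95% and, like the floor of 3 reads, cover counting error only. Folds and presence used RPKM + 1, which understates changes of low genes, and ratios with an interval used reads and totals without the 1. With 1 library per group no test was run. The members, lists and contrasts were chosen with earlier results of these data known.

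Identifiers printed were the 2 highest in L4, the 2 with the largest fold, the 2 highest of each single pattern, the 2 most different in each direction of a contrast outside the rule, and the genes nearest the threshold. Others are marked as singled out later. Alternatives were the pseudocount (0.1), the L4 minimum (5 or 20), the fold (2 or 8), each flank alone, near-identical copies counted once (same length, at least 100 reads in some library, and reads within 2% or 3 reads in all), and columns scaled to the same upper quartile or sum. Scripts were tested on simulated data and ran in Python 3.11.15 with numpy 2.4.6, pandas 2.3.3 and scipy 1.17.1.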

Additional observations from a re-analysis of the deposited data

Results flagged for a closer look

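RR46_12186 differed between the sexes in opposite directions in the pupa and the adult. Among pupae the female was at 135 RPKM against 21.6 in the male. Among adults the female was at 6.64 against 70.4 in the male. The log2 of RPKM + 1, female over male, was 2.58 in pupae and -3.23 in adults. Each value is 1 animal, and the reversal was not tested.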

How the results depend on the processing

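Of 106 values recomputed for 21 results, 67 stayed within 1.5 times of the reported value and 39 did not, in most cases by construction, since the setting takes in more or fewer genes. A fold of 2 gave 565 genes with a median fold of 2.55, of which 254 were present in L2, 466 in pupae, 502 in adults and 451 in the egg or L1. A fold of 8 gave 27 genes with a median fold of 19.8, of which 5 were high in L4 only, 2 present in L2, 14 in pupae, 17 in adults and 4 in the egg or L1, and 26.4% of neighbouring identifiers were in the set. L3 alone as the flank gave 366 genes with a median fold of 2.65 over the higher flank, present in L2 (135), pupae (277), adults (307) and the egg or L1 (269). L5 alone gave 143 genes, present in L2 (58), pupae (99), adults (113) and the egg or L1 (88). A minimum of 20 RPKM in L4 left 14 genes present in L2.

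Scaling moved other values, and the cause was not tested. At the same upper quartile 14 genes were high in L4 only. At the same sum 85 genes were present in pupae and 74 in the egg or L1, and the share of neighbouring identifiers in the set was 10.1%. The following were chosen after seeing the data. Under the upper-quartile scaling and then the scaling to the same sum, the members higher in L2 than in L1 numbered 11 and 2, beside 5.77% and 0.78% of all genes. Those higher in the female than the male adult numbered 7 and 21, beside 5.83% and 14.0%, and those lower there 4 and 1, beside 12% and 9.04%. At the same sum 35 members were lower in L2 than in L1, beside 28.2% of all genes. L2 raised over L1 and L3 gave 211 genes under the first of these scalings, and 65 when sums were made equal. No paired analysis was possible because each group had 1 library. No replicate could be left out for the same reason, and the depth limits values near 3 reads.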
